A study of Mus musculus with 12 samples.

Results

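Atf3 knockout and wild-type (WT) bone-marrow-derived macrophages were compared in the absence of any stimulus, on the 6 arrays so titled among the 12 of the series, 3 of each genotype. The knockout group came from Atf3-/- mice and the control group from wild-type mice. All were female, of C57BL/6J background, 8 to 12 weeks old and on normal chow, and the sources used here do not describe how the Atf3-/- allele was made. In both groups femoral marrow cells were grown in macrophage colony-stimulating factor (M-CSF, recombinant human protein at 50 ng/mL) and replated on day 6, and neither received oxidised low-density lipoprotein (oxLDL). The other 6 arrays, again 3 Atf3-/- and 3 wild type, held macrophages kept with oxLDL at 25 ug/mL for 24 h from day 7, and they serve here as a second reading of the genotype difference on other arrays. Every array is a Mouse Exon 1.0 ST chip that reads each transcript with several probes, and its values are levels on the log2 scale, where a difference of 1 is a 2-fold change.

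ATF3 is a basic leucine zipper protein of the ATF/CREB family that binds DNA in pairs with itself or with other members of that family and of the AP-1 family. Its gene is switched on quickly by cell stress, and in mouse macrophages also by ligands of Toll-like receptors, where the protein is known mainly as a repressor of inflammatory genes such as Il6 and Il12b. Macrophages grown from marrow in M-CSF are a standard culture model of this cell type, and comparing them without a stimulus asks how far loss of Atf3 alters the resting state.

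The table holds 74007 rows that carry Ensembl transcript IDs of the mouse. Of the 49997 entries of the gene table used here, 0 carry an Ensembl ID, so no row was paired with a gene symbol and results are given by ID. For the same reason the level of Atf3 itself, the check of the labelled cell type against macrophage markers, and markers of other cell types were not analysed here. Array medians of the 6 unstimulated arrays lay between 8.46 and 8.55 on the log2 scale, and precision is limited by there being 3 arrays a group.

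The largest rise in the knockout was that of ENSMUST00000023248. Its log2 level was 11.56, 11.43 and 11.49 on the 3 knockout arrays, against 9.17, 9.09 and 8.74 on the 3 WT arrays. All knockout arrays lay above all WT arrays, and the groups were separated by far more than either spread. Groups without overlap were common, being found in 46.6% of all transcripts tested. The difference was 2.49 (SE 0.15), a 5.63-fold higher level in the knockout (limma adjusted p = 1.25e-05). These levels placed the transcript between percentiles 96.7 and 97.3 of the knockout arrays and between percentiles 57.8 and 65.8 of the WT arrays. As the samples are bulk RNA, fewer cells of a type and less RNA per cell cannot be told apart in this or any later difference.

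ENSMUST00000050562 showed the next largest rise. It stood at 11.23, 11.25 and 11.12 in knockout macrophages and at 8.62, 9.05 and 8.59 in WT macrophages (log2 levels). Again the groups did not overlap, which the rule for naming IDs required of every named transcript. The knockout level was 5.45-fold higher, with a log2 difference of 2.45 (SE 0.21, limma adjusted p = 1.14e-04). For both rising transcripts, WT replicate 1 lay among or beside the other WT arrays, and without it the differences were 2.58 (SE 0.16) and 2.38 (SE 0.24). Neither was then the largest rise, as the largest called rise without that array was 2.79.

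The deepest fall was that of ENSMUST00000079443. Its log2 level was 8.16, 8.22 and 8.22 on the knockout arrays, against 10.61, 12.07 and 12.21 on the WT arrays. The knockout values lay between percentiles 39.8 and 41.6 of their arrays and hardly differed from each other, while the WT values lay between percentiles 90.8 and 99.3. The level was 10.8-fold lower in the knockout, a log2 difference of -3.43 (SE 0.33, limma adjusted p = 2.16e-04). WT replicate 1 was the lowest WT array here, and without it the difference was -3.94 (SE 0.18), which is 15.3-fold.

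ENSMUST00000112108, with 8.10, 8.14 and 8.15 in the knockout against 10.52, 12.0 and 12.13 in WT, carried nearly the same signal. Its log2 difference was -3.42 (SE 0.33, limma adjusted p = 2.16e-04). These IDs belong to a set of 12 that were lower in the knockout by more than 3 on the log2 scale, from -3.43 to -3.18. Across all 12 arrays the lowest pairwise correlation within the set was 0.996, so it is close to a single measurement and not 12. On the knockout arrays the set lay between 7.59 and 8.84. The next fall after it was -1.97, which leaves a wide gap in size between this set and every other transcript lower in the knockout.

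**Figure D1:**
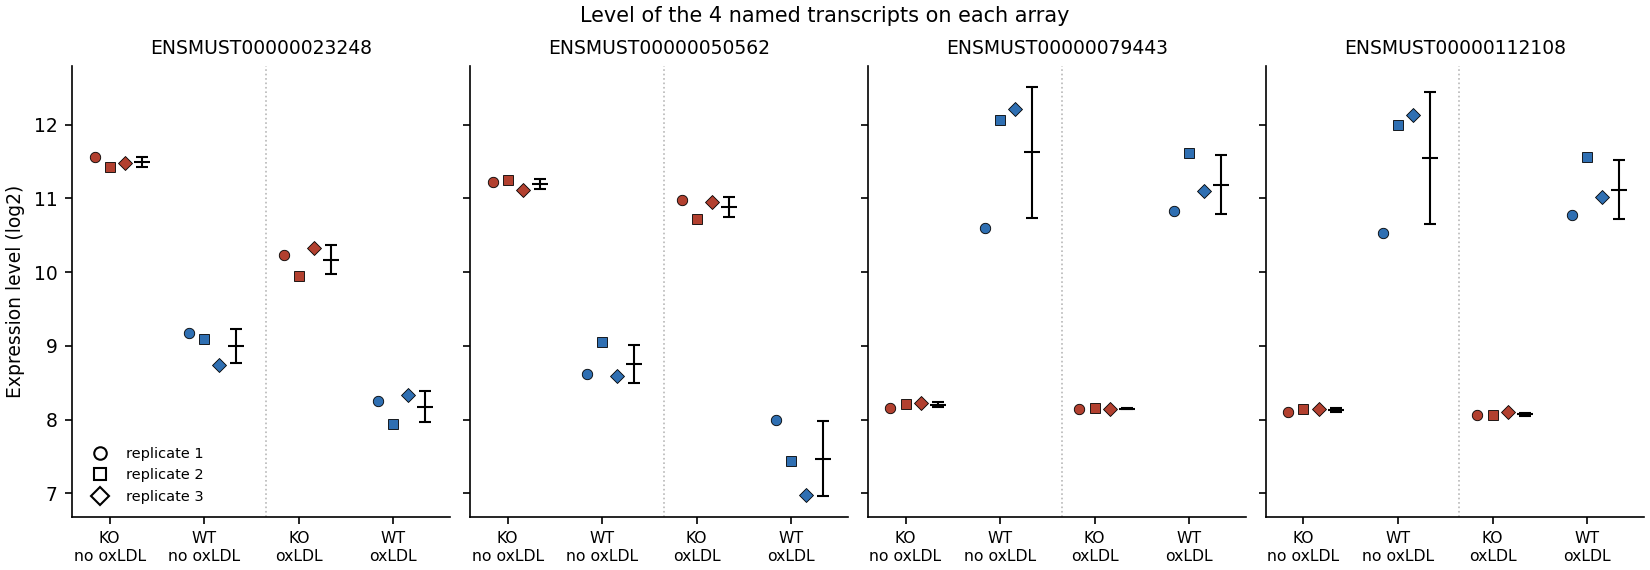
Log2 level (y axis) of the 4 named transcripts on all 12 arrays. Red points are Atf3 knockout (KO) arrays and blue points WT arrays, the shape gives the replicate number, and the bar beside each group is its mean ± SD (n = 3). Without oxLDL, ENSMUST00000023248 lay at 11.43 to 11.56 in the knockout and at 8.74 to 9.17 in WT, and ENSMUST00000079443 at 8.16 to 8.22 in the knockout and at 10.61 to 12.21 in WT, with WT replicate 1 lowest.

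Of the 39620 transcript rows bright enough to be tested, 6640 differed between the genotypes, which is 16.8% (limma on all 12 arrays, Benjamini-Hochberg adjusted p under 0.05). Of these, 4510 were higher in the knockout, 11.4% of those tested, and 2130 were lower, 5.38%. Most differences were modest: in 87.2% of the called transcripts the log2 difference was smaller than 1, and the median was 0.61 for those higher and -0.53 for those lower. The median over all tested transcripts was -0.02. The share of calls that were higher depended on scaling and on the arrays in the fit. It was 67.9% as given, 48.7% after quantile normalization, 53.7% after centring each array on its median, and 57.4% with the 6 unstimulated arrays alone. It cannot be read as a net direction.

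Large differences were mainly rises under every setting run. More than 1 on the log2 scale, 735 called transcripts were higher in the knockout and 115 lower. Quantile normalization gave 710 higher and 122 lower, and centring on medians 670 and 124. Over all 23 alternatives the number higher lay between 353 and 1223 and the number lower between 79 and 163. The narrowest split, 440 higher and 154 lower, came without WT replicate 3. Counts of IDs overstate the number of separate signals. When an ID was said to follow another if their centred values differed by less than 0.15 on every array, the 735 rising IDs fell into 523 groups and the 115 falling IDs into 72. The largest rising group held 9 IDs and the largest falling group 10, while 396 rising and 53 falling groups held 1 ID.

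**Figure D2:**
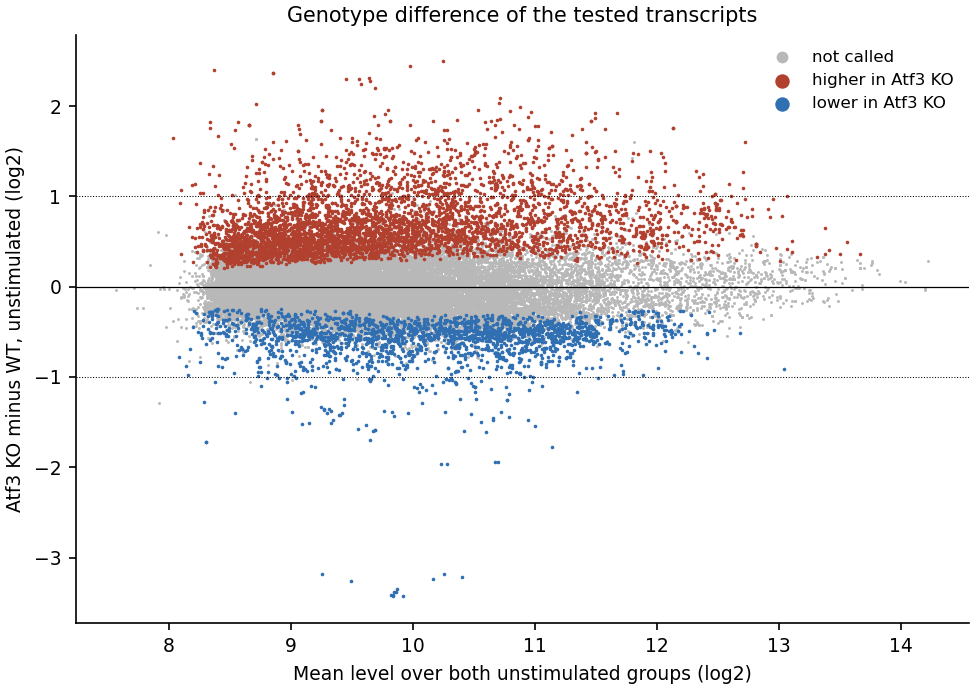
Log2 difference, Atf3 knockout minus WT without oxLDL (y axis), against the mean log2 level over both groups (x axis), for the 39620 tested transcripts. Red points were called higher in the knockout (4510), blue points lower (2130) and grey points were not called. Dotted lines mark a difference of 1 in either direction, beyond which 735 called transcripts were higher and 115 lower, and the separate set below -3 holds 12 IDs.

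With the values as given, the share of transcripts called rose with level, and the split of directions narrowed. The shares by level are given for that scaling alone, and the share higher depended on scaling. From the dimmest class to the brightest, the median difference of all tested transcripts was -0.007, -0.014, -0.043 and -0.051. Rows near the array median, as in the dimmest class, could pass the filter through 1 group of 3 arrays alone. Tested transcripts were put into 4 classes of 9905 by mean level. In the dimmest class, up to 8.93 on the log2 scale, 12.0% were called, and 79.7% of these calls were higher in the knockout. The next classes had 13.8% and 15.98% called, with 74.9% and 69.8% of the calls higher. In the brightest class, from 10.25 to 14.22, 25.2% were called and 57.3% of the calls were higher. Each class held more large rises than large falls, from 62 against 8 in the dimmest to 337 against 45 in the brightest (called, more than 1 on the log2 scale).

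Few transcripts lay on opposite sides of the array median in the genotypes. On all 3 knockout arrays 487 transcripts lay above the median of the array and on all 3 WT arrays below it. The opposite pattern, below the median in the knockout and above it in WT, was shown by 362. Not all of these differed by the test: 364 of the 487 and 119 of the 362 were called. Of all tested transcripts 16.8% were called, but that is no fair background, since a separation of the genotypes is built into this choice. Among the 18444 tested transcripts whose groups did not overlap, 6616 were called. The 3 arrays on which each transcript was high were also enough to pass it through the filter. Under a stricter rule, 4 transcripts were above percentile 75 of every knockout array and below the median of every WT array, and 9 were below the median of every knockout array and above percentile 75 of every WT array. The same side of the median was held on all 6 oxLDL arrays by 263 of the 487 and by 76 of the 362.

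WT replicate 1 lay between the genotypes. To place each array without using it to choose transcripts, the array was left out of the fit, and its level in each transcript called in that fit was scaled so that 0 is the mean of the other arrays of its group and 1 the mean of the other genotype. WT replicate 1 had a median position of 0.525 over 8863 transcripts (quartiles 0.316 and 0.727). It was nearer to the knockout mean than to the other WT arrays in 53.3% of them, and past the knockout mean in 7.5%. The 3 knockout arrays had medians of 0.0206, -0.0675 and 0.0788, and WT replicates 2 and 3 had -0.114 and -0.153. Each of these 5 arrays was nearer to the other genotype in at most 8.2% of its transcripts. For WT replicates 2 and 3, the mean set at 0 includes WT replicate 1, which moves them away from the knockout on this scale. Their positions are therefore not on the same footing as that of WT replicate 1.

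The position was similar when the axis was taken from the oxLDL arrays. Over the transcripts called on the 6 oxLDL arrays alone, with 0 at the WT oxLDL mean and 1 at the knockout oxLDL mean, the unstimulated knockout arrays lay at 1.01, 1.05 and 0.973. WT replicates 2 and 3 lay at 0.188 and 0.146, and WT replicate 1 at 0.581. The mean correlation of WT replicate 1 over the tested transcripts was 0.954 with the knockout arrays and 0.946 with the other WT arrays. Its array median, 8.53, was inside the range of the other arrays, and the part of sample handling in its position was not tested, since no label gives a processing day.

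**Figure D3:**
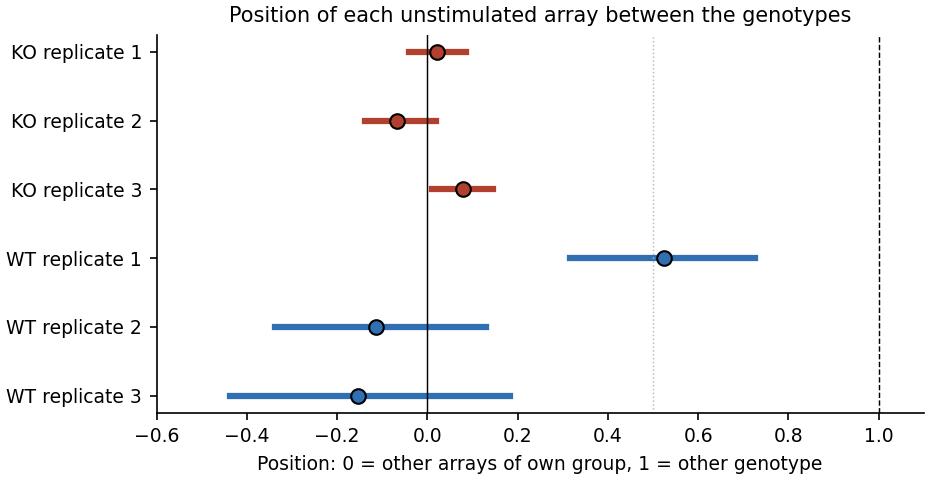
Position of each unstimulated array on a scale (x axis, no unit) from the other arrays of its own group at 0 to the other genotype at 1, read in the transcripts called without that array. Points are medians and bars run between the quartiles over 2797 to 8863 transcripts. The knockout (KO) arrays and WT replicates 2 and 3 lie near 0, and WT replicate 1 lies at 0.525. For WT replicates 2 and 3 the mean set at 0 includes WT replicate 1.

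Leaving out WT replicate 1 raised the number of calls and made most differences larger. Larger differences are built in, since this array was set apart for lying between the genotypes. The smaller WT group was then also the more variable (replicate SD 0.191 against 0.0671 in the knockout). A spread shared by all groups does not allow for that, and its part in the higher count was not tested. Both fits share all other arrays, so the overlap of their calls is no independent check. Without it 8863 transcripts were called, 22.4% of those tested, 5839 higher in the knockout (14.7%) and 3024 lower (7.63%). Of the 6640 calls made with it, 6193 were called again, all in the same direction, which is 93.3% of the first list and 69.9% of the second. Among those shared calls, 89.6% had a larger difference in size without the array, and the median ratio of the differences was 1.16. Rises of more than 1 on the log2 scale numbered 1210 without it against 735 with it, and falls 159 against 115. Rises of more than 2 numbered 84 without it against 14 with it, while falls of more than 2 numbered 12 in both fits. Of the 850 transcripts that differed by more than 1 with all arrays, 846 were called without it too.

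The effect of this array differed among the leading transcripts. The 10 largest groups of IDs higher in the knockout had log2 differences of 1.99 to 2.49, the highest limma adjusted p being 0.00790. In the 4 largest of them WT replicate 1 lay with the other WT arrays, at positions of -0.09 to 0.11. In the next 5 it lay at 0.52 to 0.76, nearer to the knockout mean, and in the last at 0.34. In the 10 largest groups lower in the knockout, with differences of -3.43 to -1.61, it was nearer to the knockout mean in 0 and lay at -0.38 to 0.42. Ranks 1 to 3 of these falling groups are the set of 12 IDs that is close to a single measurement. In all 10 groups of either direction the genotypes did not overlap, and all were called without WT replicate 1 as well. The smallest gap between the genotypes was 0.46 in the rising and 1.08 in the falling groups. They were picked for their size, so these counts describe them and test nothing.

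**Figure D4:**
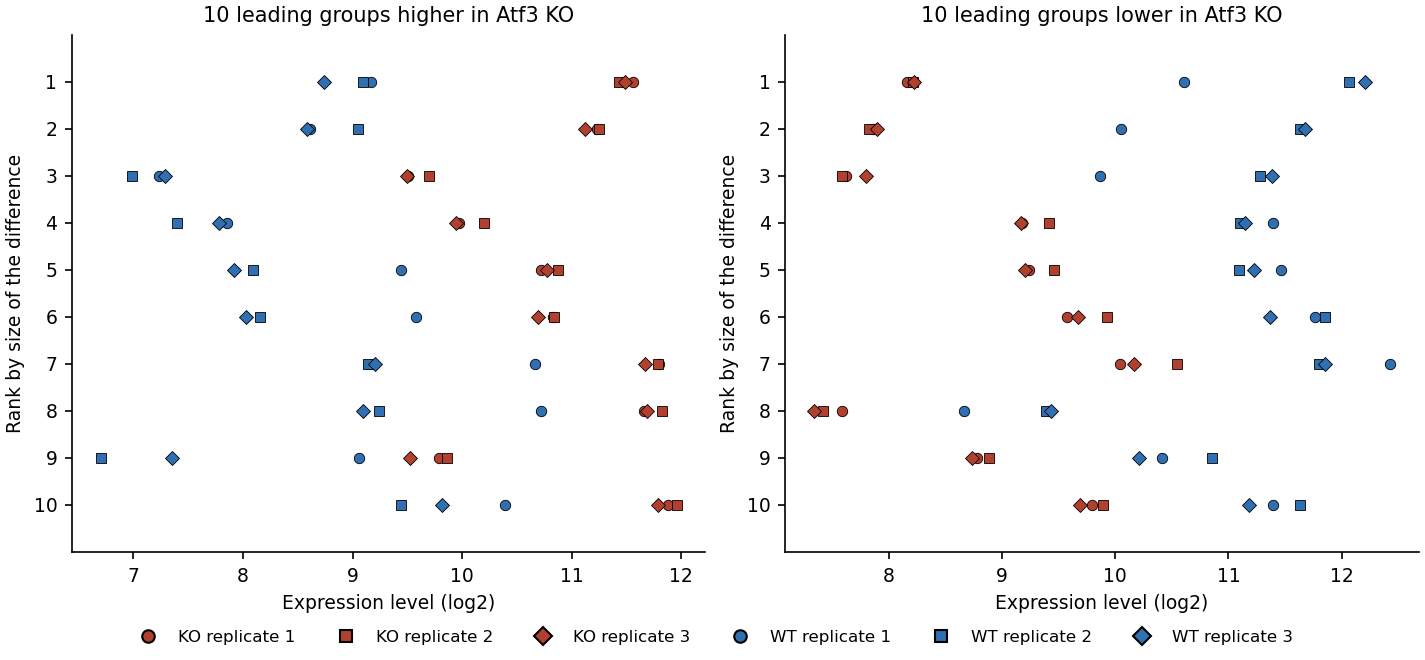
Log2 level (x axis) on the 6 unstimulated arrays for the 10 largest groups of IDs higher (left) and lower (right) in the knockout (KO), ranked by size of the difference from top to bottom (y axis), with 1 leading ID drawn for each group. Red points are knockout arrays and blue points WT arrays, and the shape gives the replicate. WT replicate 1 (blue circle) lies apart from the other WT arrays, toward the knockout, at ranks 5 to 10 on the left and ranks 1 to 3 and 8 on the right. On the right, ranks 1 to 3 are close to a single measurement.

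Knockout arrays repeated each other far more closely than WT arrays did. Correlations across tested transcripts were 0.995 to 0.996 within the knockout, 0.943 to 0.978 within WT, and 0.880 to 0.957 between the genotypes. The replicate SD, as a root mean square over transcripts, was 0.0671 in the knockout and 0.223 in WT, and the WT SD was the higher of the 2 in 91.5% of transcripts. Without WT replicate 1 the WT value was 0.191, still 2.85 times that of the knockout. In the called transcripts the median SD was 0.0588 in the knockout and 0.202 in WT, and 0.113 in WT without replicate 1. No source used here says whether the samples of a group shared a culture, an RNA pool or a processing day, so genotype and such a shared source cannot be told apart.

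The number of calls therefore depends on whose spread is used. The limma fit pools the spread of all 12 arrays. With the spread of both genotypes taken from the 6 WT arrays alone, 657 transcripts were called, 1.66% of those tested, 553 higher in the knockout (1.4%) and 104 lower (0.262%), and 6738 had an unadjusted p under 0.05. Of these 657, 656 were among the 6640, and 432 were among the 850 that differed by more than 1. The 4 named transcripts were called in that fit too, with limma-type adjusted p of at most 0.0110. Leaving out a knockout array, or WT replicate 2 or 3, lowered the count to between 2797 and 3669. Leaving out WT oxLDL replicate 3, an array of neither unstimulated group that enters only the pooled spread, raised it to 13531, while leaving out any other 1 of the oxLDL arrays gave 5223 to 8730.

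On separate arrays, with oxLDL, the named transcripts differed in the same direction. ENSMUST00000023248 stood at 10.23, 9.95 and 10.33 in knockout cells with oxLDL, against 8.25, 7.94 and 8.34 in WT cells with oxLDL. That is a log2 difference of 2.0 (SE 0.15, limma adjusted p = 1.50e-05). ENSMUST00000050562 differed there by 3.41 (SE 0.21, adjusted p = 6.11e-06) and ENSMUST00000079443 by -3.04 (SE 0.33, adjusted p = 9.46e-05). In the test of whether the genotype difference itself changed with oxLDL, none of the 4 named transcripts passed. Their changes, with oxLDL minus without, were -0.50 (SE 0.21), 0.97 (SE 0.30), 0.39 (SE 0.47) and 0.38 (SE 0.47), each with a limma adjusted p of 1.00, so changes of such a size are not excluded. Of all tested transcripts 1, or 0.00252%, passed this test, and it was not among those called without oxLDL. With no adjustment, 1149 had a limma p under 0.05 for it, which is 2.90% of all tested. That share is lower than this threshold would give on average with no true change, so the count is no evidence of further, weaker changes. Without unstimulated WT replicate 1, 3 passed, and 2 of these were among those called without oxLDL in the same fit.

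Across the list, 99.9% of the transcripts called higher without oxLDL and 98.9% of those called lower had the same sign with it. The same-sign share over all tested transcripts is not given here, so these percentages have no background beside them. Of the 735 that were higher by more than 1, 728 were called higher with oxLDL, where 19.9% of all tested transcripts were called higher. Of the 115 lower by more than 1, 98 were called lower with oxLDL, where the share of all tested was 8.91%, and 1 had the opposite sign. The median difference of the called rises was 0.61 without and 0.79 with oxLDL, and that of the called falls -0.53 without and -0.50 with it. Choosing transcripts without oxLDL favours larger differences in that state.

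The reverse reading, in which the oxLDL arrays choose the transcripts, was made with each set of 6 arrays fitted alone, so that neither arrays nor spread were shared. The oxLDL arrays alone called 5765 transcripts higher in the knockout, 14.6% of those tested, and 4277 of these, 74.2%, were also called higher by the unstimulated arrays alone, where the background was 14.3%. They called 1712 lower, 4.32%, and 1245 of these, 72.7%, were called lower by the unstimulated arrays, with a background of 10.6%. No transcript was called in opposite directions by the 2 limma fits. As a share of the unstimulated lists these are 75.6% of 5655 rises and 29.6% of 4201 falls. For the rises chosen on the oxLDL arrays the median difference was 0.53 without oxLDL, or 0.64 if WT replicate 1 was left out, and 0.76 with oxLDL. For the falls it was -0.48 without oxLDL, or -0.54 if WT replicate 1 was left out, and -0.61 with oxLDL. Choosing transcripts on the oxLDL arrays favours larger differences there, so these medians do not rank the 2 states. If all arrays of a genotype were handled together in both states, that handling and genotype cannot be told apart here.

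**Figure D5:**
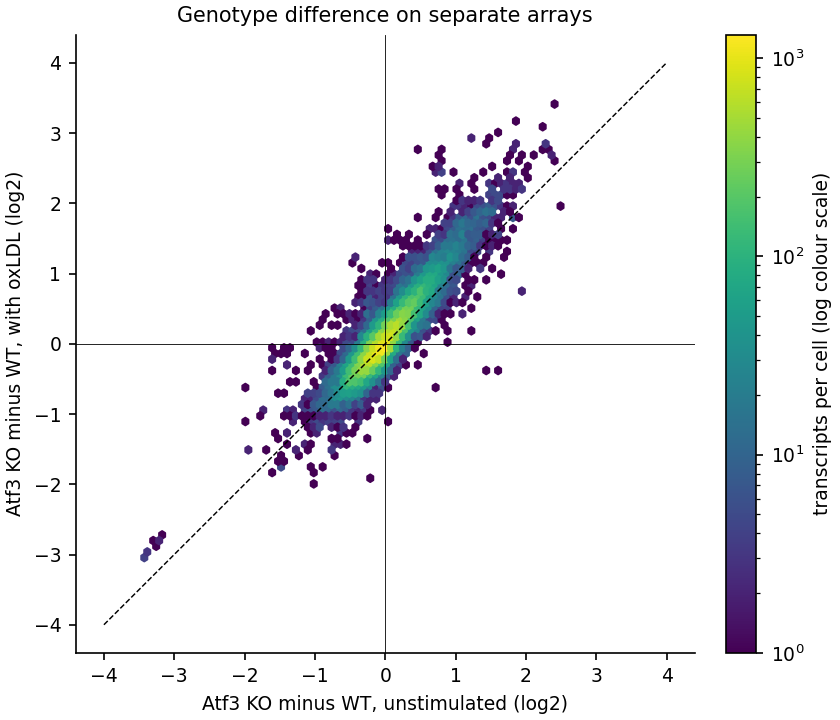
Log2 genotype difference (Atf3 knockout minus WT) without oxLDL (x axis) against that with oxLDL on other arrays (y axis) for the 39620 tested transcripts. Colour gives the number of transcripts per cell on a log scale and the dashed line marks equal differences. Of 735 called transcripts above 1 on the x axis, 728 were also called higher with oxLDL, in the same fit with a shared spread. The set of 12 IDs at the lower left lies near -3 on both axes.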

How the data were processed

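RNA of 12 macrophage samples was read on 12 Affymetrix arrays. The deposited values are log2 levels per transcript-level probe set, made by the authors, per the labels (the design text). The submitters' processing notes name Affymetrix Power Tools and PLIER without saying how they were used, and background correction, normalization and annotation are not stated in these sources. Groups were taken from the sample titles. Rows above the array's median on at least 3 of the 12 arrays were tested, 39620 or 53.5% of 74007. The test was limma 3.58.1 in R 4.3.3, with a mean for each group, a shared spread (8 residual and 4.36 prior degrees of freedom), an intensity trend and Benjamini-Hochberg adjustment over all tested rows, for knockout minus WT without and with oxLDL and for their difference. It was also run on simulated data with independent noise and no array between the genotypes, which says nothing of the counts here. An exact permutation test of 3 against 3 arrays cannot give a p below 0.1 and was not used. P-values reflect only how these samples spread, which may be partly technical. Named IDs are the 2 largest rises and 2 largest falls that passed with and without WT unstimulated replicate 1 with no overlap of the groups. Their size was ranked with all arrays in the fit. The comparison, gene lists and rules were chosen with earlier results of these data known. The gene and marker lists were not used, since no ID carries a symbol, and no sequence is shown for that reason. Alternatives covered the filter, scaling, background, variance model, array weights, replicate block and each of the 12 arrays left out in turn.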

Additional observations from a re-analysis of the deposited data

How the results depend on the processing

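All differences of the 4 named transcripts kept their direction and their side of the threshold under every alternative run, without oxLDL (23 alternatives), with oxLDL (22) and for the change with oxLDL (22). For that change, array weights came near the threshold, with limma adjusted p of 0.056, 0.115, 0.061 and 0.065 in the order named. Of these transcripts, ENSMUST00000079443 and ENSMUST00000112108 carry nearly the same signal. The number of calls, 6640 with 4510 higher and 2130 lower in the knockout, moved more. Quantile normalization gave 12241, with 6275 lower, and centring on medians gave 4563 lower. Array weights, whose fit stopped before full convergence, gave 12923 (7275 higher, 5648 lower), the 6 unstimulated arrays alone 4201 lower, and the spread of the WT arrays alone, chosen after seeing the data, 657 (553 and 104). Leaving out each of the 12 arrays in turn gave 2797 to 13531 calls, 2068 to 7231 higher and 723 to 6300 lower. The oxLDL arrays, of neither group, were left out after seeing the data. The highest counts came without WT oxLDL replicate 3, those lower also reached 3456 without WT oxLDL replicate 2, and leaving out both WT oxLDL replicate 3 and WT unstimulated replicate 1 gave 18734 (9281 higher, 9453 lower). Starting without WT unstimulated replicate 1, with 8863 calls, 5839 higher and 3024 lower, quantile normalization gave 16524 (8935 lower), centring 13442 (6680 lower), array weights 6262 lower, the unstimulated arrays alone 17430 (8759 and 8671) and the spread of the WT arrays 1828 (1671 and 157). Leaving out each of the other 11 arrays in turn gave 5275 to 18734 calls, 3202 to 9281 higher and 827 to 9453 lower (5338 without WT oxLDL replicate 2). Beyond the spread and number of arrays used, the cause was not tested.

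Replicate numbers did not pair the arrays. Deviations of same-numbered knockout and WT arrays correlated at -0.104, -0.270 and 0.0450, and in 0 of 3 was the own number the best match. The replicate block gave 6798 calls, and it changed no call of a named transcript. Averaging the IDs of a gene was not run, since no ID has a symbol. How far signal over background limits dim transcripts is unknown, as the table gives no background values.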
